A study of Mus musculus and Homo sapiens with 14 samples.

Results

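Azacytidine was compared with its solvent DMSO in EG7-OVA, an established mouse T cell lymphoma line that descends from EL4 and carries the chicken ovalbumin gene. Of the 14 samples of the series, 4 make up the comparison: 2 libraries of cells given DMSO and 2 of cells given azacytidine at 1.5 µM. Both kinds of culture received their agent at 0, 24 and 48 h and were harvested at 72 h. The genotype of the line is labelled WT, and no immune or stromal cells were added to the wells. Total RNA was sequenced and reads were counted per gene symbol. The series also holds 2 EG7-OVA libraries treated with decitabine at 0.2 µM on the same schedule, EL4 tumours and NKYS cells. Its stated interest is priming with DNA methyltransferase inhibitors before PD-1 blockade in NK/T cell lymphoma.

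Azacytidine is a cytidine analogue. Cells build it into RNA and, after reduction to the deoxy form, into DNA, where it traps the DNA methyltransferases, so that methylation is lost as the cells divide. Genes used only in germ cells, imprinted genes and endogenous retroviruses are among the sequences that body cells keep silent by methylation. Retroviral transcripts released by such drugs can pair into double-stranded RNA, which the sensors RIG-I and MDA5 detect and pass through MAVS to the interferon response, a chain known as viral mimicry.

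The DMSO libraries held 21048988 and 19116059 counts and the azacytidine libraries 15690759 and 16515064. A read was found for 24601 and 26252 genes with DMSO and for 27271 and 28475 with azacytidine. Values below are CPM (counts of a gene relative to the library's total, scaled by TMM), given in the order DMSO library 1, DMSO library 2, azacytidine library 1, azacytidine library 2 where 4 are listed. CPM is not divided by gene length, so levels are compared between libraries and not between genes. Where bulk RNA falls for a gene, fewer cells that use it and less RNA per cell cannot be told apart. The labels do not say whether libraries of a group came from separate cultures, so that p-values measure only the spread between these samples. Thymocyte and T cell markers were present: Thy1 stood at 465, 429, 615 and 536 CPM and Cd3e at 167, 150.3, 202 and 199 CPM, and neither passed the test. Other markers did pass the edgeR test described below. Cd3g and Cd5 were higher, Cd5 with 69.9, 66.8, 162 and 93.8 CPM (log2 fold change 0.90 ± 0.23, adjusted p = 0.0216). Ptprc was lower, with 2158, 1885, 986 and 1401 CPM (-0.76 ± 0.21, adjusted p = 0.0259). Cd3d, Cd247, Lck, Cd2, Trac, Trbc1 and Trbc2 did not pass.

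The DMSO libraries differed from each other in genes of lymphocyte identity. Cd4 was 1.86 CPM in DMSO library 1 and 41.5 CPM in DMSO library 2, Trbc1 was 0.0503 and 30.1 CPM, and the B cell factor Ebf1 was 0.0503 and 19.7 CPM. Azacytidine library 1 also had more Ebf1 than library 2, with 1.89 against 0.0596 CPM.

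Azacytidine changed 3881 of 19123 genes tested (20.3%), at an adjusted p under 0.05 by edgeR's quasi-likelihood test with Benjamini-Hochberg adjustment. Of these 2599 (13.6%) were higher and 1282 (6.7%) lower. The rises were larger: 2065 of the higher genes had a log2 fold change above 1, and 548 of the lower genes had one below -1. The median log2 fold change over all genes tested was 0.03. In 61.1% of genes tested the libraries of the 2 groups did not overlap in CPM. Leaving out azacytidine library 1 gave 1327 genes higher and 348 lower, and leaving out azacytidine library 2 gave 487 lower.

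Rises were found at all levels of expression, and falls were rare among weakly expressed genes. Of 3701 genes with a mean under 1 CPM over the 4 libraries, 618 were higher and 29 lower. The higher ones numbered 390 without DMSO library 1, 261 without azacytidine library 1 and 325 without azacytidine library 2, and the lower ones 14 without DMSO library 2, 3 without azacytidine library 1 and 16 without azacytidine library 2. Of 2526 genes with a mean above 100 CPM, 248 were higher and 384 lower. The order at the high end did not hold without DMSO library 1 (159 higher, 146 lower) or without azacytidine library 2 (136 higher, 115 lower). It held without DMSO library 2 (130 higher, 522 lower) and without azacytidine library 1 (66 higher, 122 lower). Calls of weakly expressed genes rest on few reads, and the part of depth in this asymmetry was not tested. The plot of fold change against level shows this asymmetry.

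**Figure D1:**
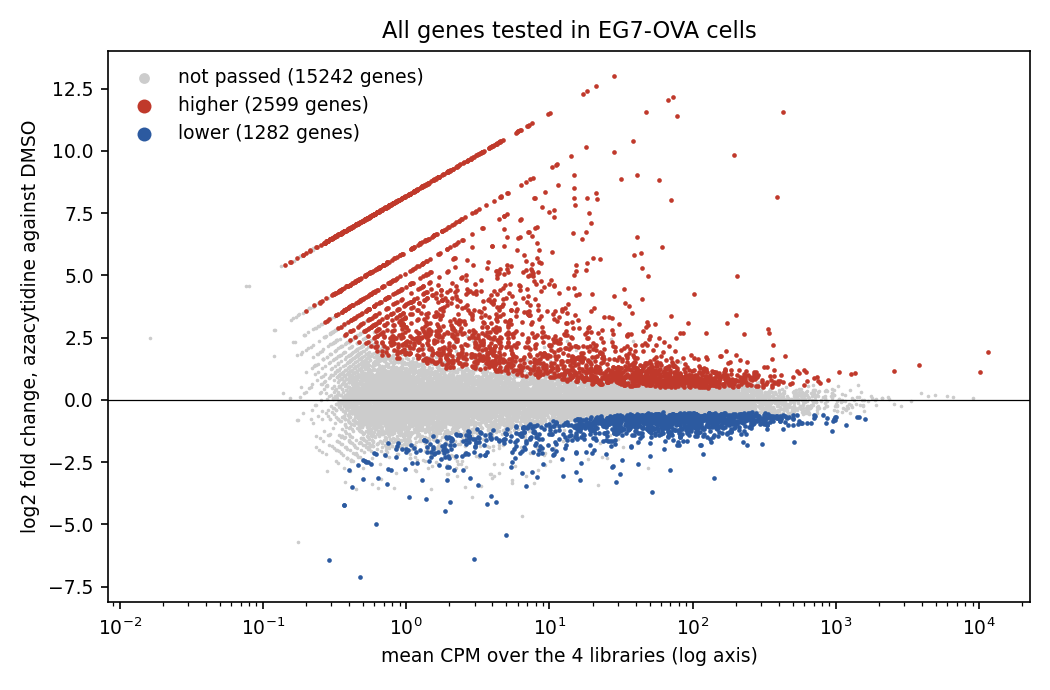
Log2 fold change of azacytidine against DMSO (y axis) against the mean CPM over the 4 libraries (x axis, log axis), 1 point per gene tested. The 2599 higher genes (red) reach log2 fold changes above 10, and the straight lines at the upper left are genes with 0, 1 or a few DMSO reads, whose fitted fold depends on the prior count. The 1282 lower genes (blue) include 29 of the genes with a mean under 1 CPM and 384 of those above 100 CPM.

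Most tested genes of a germ cell list were higher, several of them from near silence. The list of 77 genes, drawn up as a germline programme activated by DNA demethylation, had 49 members tested. Of these, 40 were higher, none was lower and 9 did not pass, while 28 members stayed under the filter on low counts. Because 17 of the tested members had no DMSO read, they passed the filter only through treated libraries, and the count is a description of the list. Without DMSO library 1, 3 members were lower. The summed level of the list was 1799.9 and 1809 CPM with DMSO and 2552 and 2342 CPM with azacytidine, most of it from Slc2a3, a glucose transporter gene with 1694, 1679, 1753 and 1549 CPM that did not pass (log2 fold change -0.03 ± 0.17, adjusted p = 0.926).

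Rec8, the meiotic cohesin subunit on chromosome 14, had 0.754, 0.947, 93.1 and 68.0 CPM. Its log2 fold change was 6.55 ± 0.28 (SE, 2 libraries a group, adjusted p = 1.77e-06). Dazl, the RNA-binding protein that licenses germ cells for meiosis, went from 0.201 and 0.0498 CPM to 41.5 and 42.4 CPM, a log2 fold change of 8.31 ± 0.44 (adjusted p = 4.403e-06). Both azacytidine libraries lay far above both DMSO libraries for these genes. Dppa4, a chromatin protein of pluripotent and early germ cells, had 0.251, 0.399, 22.02 and 19.13 CPM (log2 fold change 5.95 ± 0.42, adjusted p = 2.78e-05). The testis alpha-tubulin gene Tuba3b had 1 read in each DMSO library and 2453 reads in the azacytidine libraries together, a ratio of 1527.5 with an exact 95% counting interval of 422 to 12620. Its reads cannot be separated with certainty from those of its near copy Tuba3a. Taf7l, an X-linked TFIID subunit of spermatocytes, rose from 0.0503 and 0 CPM to 25.4 and 31.4 CPM (adjusted p = 6.43e-05 by edgeR). It had 1 DMSO read and 914 reads with azacytidine, a ratio of 1138 with a counting interval of 204 to 45009. The piRNA pathway was among the higher genes through Gtsf1, Rnf17, Tdrd12, Piwil2 and Mov10l1, which were chosen for mention after their values were seen.

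Promoters of these genes are shown because the drug acts on cytosine in CpG. The windows span 250 bases before to 50 after the RefSeq start on GRCm38.p6, the build that mm10 names, and capitals mark each CpG. Dazl lies on the minus strand at chr17:50293571-50293870 with 28 CpG, Taf7l on the minus strand at chrX:134476441-134476740 with 17 CpG, and Rec8 on the plus strand at chr14:55617916-55618215 with 18 CpG. The windows of Tuba3b and Nlrp4c, also among the called germline genes with the smallest p, have 16 and 7 CpG and are not shown.
Dazl: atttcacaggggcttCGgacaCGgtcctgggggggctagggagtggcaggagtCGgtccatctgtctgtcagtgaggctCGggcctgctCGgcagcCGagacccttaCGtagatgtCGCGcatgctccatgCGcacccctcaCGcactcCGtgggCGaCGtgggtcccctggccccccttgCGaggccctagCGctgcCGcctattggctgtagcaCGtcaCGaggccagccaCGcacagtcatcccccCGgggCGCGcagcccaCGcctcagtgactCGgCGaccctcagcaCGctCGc
Taf7l: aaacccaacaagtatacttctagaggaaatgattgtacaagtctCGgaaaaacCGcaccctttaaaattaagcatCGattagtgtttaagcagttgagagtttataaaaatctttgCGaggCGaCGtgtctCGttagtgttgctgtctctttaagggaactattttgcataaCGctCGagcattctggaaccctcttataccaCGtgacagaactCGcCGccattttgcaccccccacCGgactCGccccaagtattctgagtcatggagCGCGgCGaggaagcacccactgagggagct
Rec8: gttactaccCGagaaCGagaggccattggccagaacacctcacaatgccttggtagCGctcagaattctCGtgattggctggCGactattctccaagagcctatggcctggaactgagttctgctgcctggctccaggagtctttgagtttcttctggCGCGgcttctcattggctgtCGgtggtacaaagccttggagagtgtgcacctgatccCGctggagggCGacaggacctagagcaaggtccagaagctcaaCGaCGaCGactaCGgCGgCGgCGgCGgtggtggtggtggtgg

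The window of Taf7l holds CACGTG, the E-box that MAX and its partner MGA are known to bind in germ cell genes. Those of Rec8, Dazl, Tuba3b and Nlrp4c do not hold it. Of the 62 germline genes with a window, 19 (30.7%) held CACGTG on either strand, against 7.95% of all 19212 windows. TCCCGC, the core of the E2F6 motif, was in 37.1% of the germline windows, 25.3% of all windows and 33.7% of the windows of tested genes. The germline windows had a median of 16.5 CpG, compared with 12 over all windows and 19 over those of tested genes. These matches describe the sequence and were not tested for binding.

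Cancer-testis genes of X-linked families were also among the rises. Of 43 listed members 19 were tested, 11 were higher, none was lower and 8 did not pass. As 8 of the 19 had no DMSO read, they too passed the filter only through treated libraries. The summed level of the list was 641 and 565 CPM with DMSO and 544 and 559 CPM with azacytidine. Magea13 and Magea9, melanoma antigen genes found by the size of their rise, had no DMSO read. Magea13 had 44.6 and 39.5 CPM with azacytidine, at least 559-fold higher than DMSO when DMSO is set at 3 counts over the group. Magea9 had 33.7 and 35.0 CPM, at least 458-fold higher. Usp26, a testis deubiquitinase, reached 1.96 and 2.62 CPM from no DMSO read, at least 30.7-fold higher. Rhox2a, a reproductive homeobox gene, reached 1.83 and 2.26 CPM, at least 27.4-fold higher, and Nxf2, an mRNA export factor, 2.29 and 3.70 CPM, at least 40.3-fold higher. Members of the Mage, Rhox and Xlr families are close copies of each other, and the counting may have split their reads.

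In all, 304 genes had no read in either DMSO library and 10 or more in both azacytidine libraries. The reverse was true of 2 predicted genes, Gm24251 and Gm28856. Of the 304, 179 were annotated as protein coding and 104 were predicted models or clones, and 48 of the 274 with a chromosome lay on X. Scml2, a Polycomb protein of the germline, reached 11.9 and 16.3 CPM, at least 189-fold higher, and the ribosomal protein gene of testis Rpl39l reached 14.05 and 16.1 CPM, at least 201-fold higher. The P5-type ATPase gene Atp13a5 reached 10.9 and 28.0 CPM and the calcium channel gene Trpc6 10.0 and 13.8 CPM. The count depends on the DMSO libraries: without DMSO library 2 it was 512, and with 20 or 5 reads in place of 10 it was 169 and 557.

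**Figure D2:**
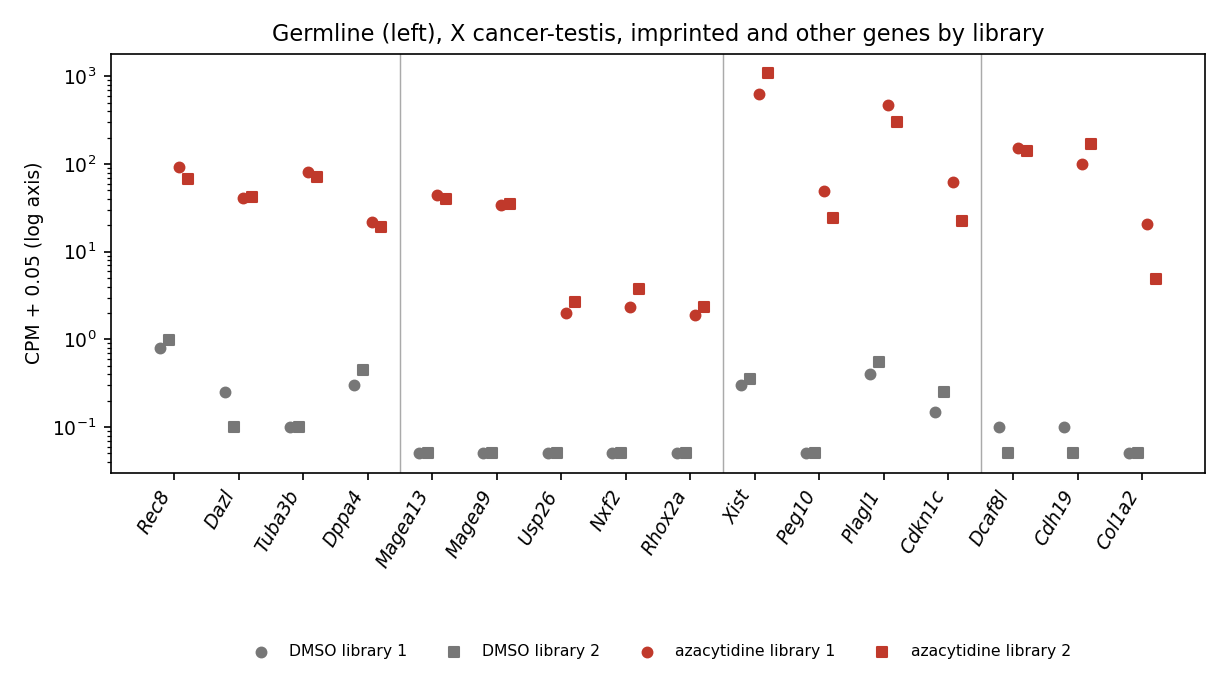
CPM plus 0.05 (y axis, log axis) of 16 genes in the 4 libraries, from left to right germline, X cancer-testis, imprinted-list and other genes; grey marks DMSO, red azacytidine, circles library 1 and squares library 2. Points at 0.05 are libraries without a read, and every red point lies above both grey points of its gene. Over all genes tested, 61.1% had groups that did not overlap in either direction.

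Olfactory and vomeronasal receptor genes, which are normally used in sensory neurons, had higher members in the treated cells, at a share that depends on the filter on low counts. Of 17 tested vomeronasal receptor genes 10 were higher and none lower, out of 354 in the table (2 lower without azacytidine library 2). Among olfactory receptor genes 23 of 1153 were tested, 13 were higher and 1 was lower (5 lower without DMSO library 1). No DMSO read was found for 5 of the 17 and 11 of the 23. Without the filter 14 of 121 vomeronasal genes (11.6%) and 27 of 298 olfactory genes (9.06%) were higher, near the 9.83% of all 35328 genes in that fit. Vmn2r96 had no DMSO read and 14.7 and 13.9 CPM with azacytidine, at least 190-fold higher. Or6b13, the lower one named by the size of its fall, had 4.07, 15.3, 0.327 and 0.119 CPM (log2 fold change -5.42 ± 0.78, adjusted p = 0.00117). These families are large and their members alike, and reads may be shared between them.

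Several imprinted genes rose from near silence. Of 57 listed genes, 17 were under the filter on low counts and 40 were tested. Of those tested, 6 had no DMSO read and passed the filter only through treated libraries. In all, 14 were higher (35% of those tested, against 13.6% of all genes tested), 1 was lower and 25 did not pass. The lower one, Dhcr7, lost its call without DMSO library 2 or either azacytidine library, and 2 members were lower without DMSO library 1. Xist is the long RNA that coats the inactive X chromosome. It lies at chrX:103460366-103483254 and had 0.251, 0.299, 629 and 1092 CPM, a log2 fold change of 11.57 ± 0.42 (adjusted p = 8.45e-07). Its antisense partner Tsix was also called higher, and whether the counting used strand is not given in the sources used here, so that reads of the pair cannot be told apart. Plagl1, a zinc finger growth suppressor expressed from the paternal allele, had 0.352, 0.498, 478 and 303 CPM (log2 fold change 9.82 ± 0.40, adjusted p = 1.49e-06). Cdkn1c, the maternally expressed inhibitor of cyclin-dependent kinases, had 0.101, 0.199, 62.9 and 22.4 CPM (8.08 ± 0.65 on the log2 scale, adjusted p = 4.91e-05). For Cdkn1c azacytidine library 1 was the higher, and both treated libraries exceeded the DMSO libraries.

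Peg10, a paternally expressed gene domesticated from a retrotransposon, had no DMSO read and 49.1 and 24.4 CPM with azacytidine, at least 482-fold higher. It was 1 of 3 retrotransposon-derived genes called higher among 15 tested (20%, against 13.6% of all genes tested), with none lower. Another 10 of the 25 listed genes with an entry were under the filter on low counts. Pnma5 had 0.201, 0.0498, 17.1 and 25.5 CPM (log2 fold change 7.34 ± 0.62, adjusted p = 7.37e-05). Rtl5 had 1 DMSO read and 70 reads with azacytidine, a ratio of 87.2 with a counting interval of 15.1 to 3492. Endogenous retroviral repeats themselves were not analysed here.

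Not every gene with a large rise had a CpG-rich start. The Xist window, on the minus strand at chrX:103483184-103483483, has 15 CpG, while that of Atp13a5, on the minus strand at chr16:29378683-29378982, has 2. They are shown as the genes with the largest rises that have a RefSeq window.
Xist: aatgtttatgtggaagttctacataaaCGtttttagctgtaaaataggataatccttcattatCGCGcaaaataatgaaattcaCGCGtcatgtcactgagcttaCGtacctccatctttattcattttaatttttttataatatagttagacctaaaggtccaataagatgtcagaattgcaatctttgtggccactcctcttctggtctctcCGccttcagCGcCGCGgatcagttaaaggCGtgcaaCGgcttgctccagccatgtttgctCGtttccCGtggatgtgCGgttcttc
Atp13a5: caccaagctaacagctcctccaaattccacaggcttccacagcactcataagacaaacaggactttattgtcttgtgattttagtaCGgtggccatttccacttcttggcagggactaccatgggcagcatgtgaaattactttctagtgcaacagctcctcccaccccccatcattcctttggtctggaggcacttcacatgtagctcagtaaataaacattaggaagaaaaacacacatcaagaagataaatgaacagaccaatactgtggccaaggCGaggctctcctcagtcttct

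Over all windows that matched a tested gene, the median CpG number was 15 for higher genes, 21 for lower genes and 20 for genes that did not pass. The share of windows with 5 or fewer CpG was 20.9% among higher genes, 10.4% among lower genes and 14.02% among the rest. The 163 switched-on genes with a window had a median of 11 CpG. Methylation was not measured in these libraries.

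Called genes lay on every autosome and on X, which had the highest share of higher genes among those tested. On X, 123 of 540 tested genes (22.8%) were higher and 39 (7.22%) lower. The next highest shares of higher genes were 17.1% on chromosome 19 and 16.5% on chromosome 7. The higher X genes included 48 switched-on genes, which passed the filter on low counts only through treated libraries. Without that filter, 166 of 1237 X genes (13.4%) were higher, against 9.83% of all 35328 genes in that fit. The highest share of lower genes, 15.4%, was on chromosome 13, where 43 of the 107 lower genes were listed histone genes. Without azacytidine library 1 chromosome 13 had 50 lower genes and X had 10, and without azacytidine library 2 they had 55 and 10. X had 21 lower without DMSO library 1. Of 17 tested mitochondrial genes none was called. Unprocessed pseudogenes had 40 higher and none lower of 120 tested, and 26 higher without azacytidine library 2. Without the filter on low counts 58 of 577 (10.05%) were higher, near the share of all genes in that fit.

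**Figure D3:**
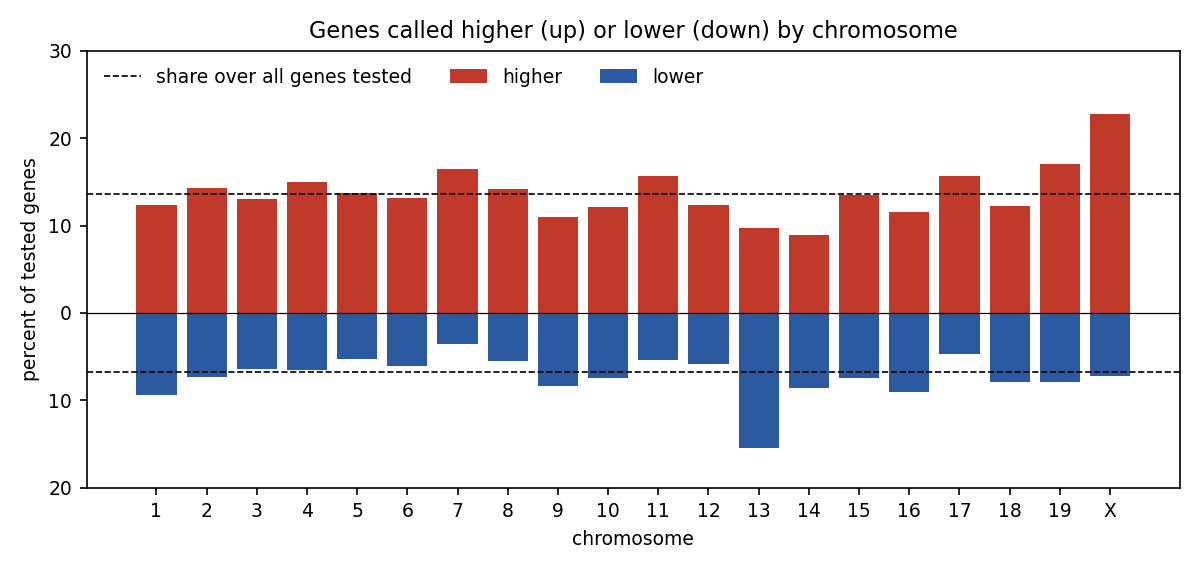
Percent of tested genes called higher (red, upward) and lower (blue, downward) on each autosome and X; dashed lines are the shares over all genes tested, 13.6% and 6.7%. X is highest upward at 22.8% and chromosome 13 downward at 15.4%. Without the filter on low counts X had 13.4% higher, against 9.83% of all genes in that fit.

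Interferon-stimulated genes were mostly higher. Of 69 listed genes 62 were tested, 39 were higher, none was lower and 23 did not pass, and the median log2 fold change of those tested was 1.37 (2 lower without DMSO library 1). The strongest calls were GTPases that attack the vacuoles of intracellular pathogens. Igtp had 9.15, 11.02, 60.4 and 58.4 CPM (log2 fold change 2.56 ± 0.22, adjusted p = 8.13e-05). Gbp2 had 0.603, 1.20, 15.2 and 14.6 CPM (4.04 ± 0.35, adjusted p = 8.13e-05). The azacytidine libraries agreed closely for both genes and lay above the DMSO libraries. Gbp4 had 5.53, 8.13, 41.6 and 54.6 CPM (2.81 ± 0.25, adjusted p = 9.16e-05), and Gbp9 rose by 3.08 ± 0.30 (adjusted p = 0.000140). Isg15, a ubiquitin-like modifier often used as a readout of this response, went from 1.11 and 0.748 to 3.59 and 2.26 CPM (1.65 ± 0.49, adjusted p = 0.0385), and its call was lost without any 1 of the 4 libraries. Usp18, which limits signalling at the interferon receptor, had 2.66, 8.57, 31.7 and 30.8 CPM (2.47 ± 0.46, adjusted p = 0.00452).

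The windows of the first 2 of these genes are shown for the interferon-response element, with each GAAA that is followed after any 2 bases by a second GAAA, on either strand, in capitals. They were chosen after the values were seen. Igtp lies on the plus strand at chr11:58199306-58199605 and Gbp2 on the plus strand at chr3:142620413-142620712.
Igtp: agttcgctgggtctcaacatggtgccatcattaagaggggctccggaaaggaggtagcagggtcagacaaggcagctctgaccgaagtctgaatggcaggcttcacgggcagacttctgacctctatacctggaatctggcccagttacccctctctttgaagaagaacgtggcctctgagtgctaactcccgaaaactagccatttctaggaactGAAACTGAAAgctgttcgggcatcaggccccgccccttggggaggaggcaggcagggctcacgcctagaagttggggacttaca
Gbp2: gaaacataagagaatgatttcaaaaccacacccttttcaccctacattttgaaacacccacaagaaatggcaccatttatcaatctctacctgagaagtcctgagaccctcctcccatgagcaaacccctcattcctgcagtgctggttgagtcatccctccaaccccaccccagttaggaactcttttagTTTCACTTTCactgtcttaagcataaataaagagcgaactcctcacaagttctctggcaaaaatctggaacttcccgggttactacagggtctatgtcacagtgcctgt

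The motif was present in 23 of 51 windows of listed interferon-stimulated genes (45.1%), against 3.15% of all 19212 windows. These windows were poor in CpG, with a median of 4, and 58.8% of them had 5 or fewer.

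Receptors and enzymes of RNA sensing rose with them. Of 34 listed genes 29 were tested, 16 were higher, none was lower and 13 did not pass; without azacytidine library 1 the count was 9, and without DMSO library 2 there was 1 lower. Rigi, the RIG-I helicase that binds double-stranded RNA ends, had 21.7, 27.7, 62.01 and 74.0 CPM (log2 fold change 1.46 ± 0.19, adjusted p = 0.000659). Zbp1, a sensor of left-handed nucleic acid, had 1.11, 1.50, 11.8 and 11.3 CPM (3.15 ± 0.31, adjusted p = 0.000155). Among enzymes that make the 2-5A messenger for RNase L, Oas3 had 12.8, 18.9, 90.9 and 62.5 CPM (2.28 ± 0.25, adjusted p = 0.000238). The groups did not overlap for these genes, as held for 61.1% of all genes tested. Ifih1, which encodes MDA5, had 0.704, 1.40, 5.03 and 2.50 CPM (1.83 ± 0.57, adjusted p = 0.0476), and the call was lost without DMSO library 1 or either azacytidine library. The adaptor gene Mavs had 84.6, 82.2, 74.7 and 61.0 CPM (-0.30 ± 0.18, adjusted p = 0.275).

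No read was counted for the listed alpha, beta, epsilon and lambda interferons, which can start this response. Other Ifna genes were not on the list, and the harvest at 72 h shows no earlier time. Ifnb1, Ifna1, Ifna2, Ifna4, Ifnl2, Ifnl3 and Ifne had 0 reads in all 4 libraries, which allows up to 0.151 CPM in a DMSO library and 0.196 CPM in an azacytidine library. Ifng had 0.654, 0.498, 0.261 and 1.31 CPM and did not pass. Of the 19 tested genes for ligands, receptors, kinases and inhibitors, 9 were higher, 1 was lower and 9 did not pass. Higher members included the inhibitors Socs1, with 26.6, 24.97, 81.8 and 49.2 CPM (1.34 ± 0.25, adjusted p = 0.00476, lost without azacytidine library 1), and Socs3, with 1 DMSO read and 143 with azacytidine (ratio 178, counting interval 31.5 to 7083). Ifnlr1, the specific chain of the lambda interferon receptor, had 0.251, 0.349, 2.29 and 4.17 CPM (3.40 ± 0.52, adjusted p = 0.00165). The lower member was Ifngr1, a chain of the interferon gamma receptor, with 218, 199, 126 and 115 CPM (-0.79 ± 0.19, adjusted p = 0.0167), and its call was lost without DMSO library 1 or either azacytidine library. The count of higher members was 4 without azacytidine library 1.

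Genes of antigen presentation by MHC class I moved in both directions. Of 29 tested members 9 were higher and 2 lower, and 18 missed the threshold; 5 were higher when azacytidine library 1 was left out. The classical heavy chains H2-K1 (867, 878, 2036 and 1686 CPM, log2 fold change 1.09 ± 0.20, adjusted p = 0.00483) and H2-D1 (853, 823, 1865 and 1530.4 CPM, 1.02 ± 0.20, adjusted p = 0.00671) rose, both calls being lost without azacytidine library 1. B2m, the light chain, had 613, 602, 847 and 752 CPM and did not pass (0.40 ± 0.17, adjusted p = 0.124). H2-Q2 fell from 287 and 220 to 31.3 and 26.3 CPM (-3.14 ± 0.28, adjusted p = 9.16e-05) and H2-Q1 from 56.5 and 38.9 to 7.32 and 7.87 CPM (-2.65 ± 0.26, adjusted p = 0.000135). H2-Q6 had no DMSO read and 2.81 and 3.93 CPM with azacytidine, at least 45.2-fold higher. H2-T23, a non-classical heavy chain, had 20.3, 31.9, 109 and 86.4 CPM (1.90 ± 0.26, adjusted p = 0.000847). Genes of the Q and T regions are near copies, so the values of single members are uncertain.

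For MHC class II, 4 of 12 tested genes were higher and none lower: Cd74, Ctss, Rfx5 and H2-Oa. The call of H2-Oa (1.41, 2.69, 5.16 and 4.95 CPM, 1.30 ± 0.40, adjusted p = 0.0453) was lost with the replicate block, with only the 4 libraries compared in the model, and on leaving out any library other than DMSO library 2. Cd74, the invariant chain, had 4.52, 4.24, 40.9 and 25.4 CPM (2.92 ± 0.26, adjusted p = 8.58e-05), and Rfx5, a factor at class II promoters, rose by 1.12 ± 0.19 (adjusted p = 0.00289).

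Genes of immune checkpoints moved in both directions. Among 31 tested, 9 were higher and 4 lower, and 18 missed the threshold. Cd274, which encodes PD-L1, had 7.34, 6.18, 12.6 and 18.8 CPM (log2 fold change 1.22 ± 0.32, adjusted p = 0.0226), a call lost without DMSO library 2 or azacytidine library 2. Vsir, the inhibitory ligand VISTA, had 7.04, 8.67, 46.8 and 32.5 CPM (2.33 ± 0.25, adjusted p = 0.000210). Cd80, a ligand of CD28 and CTLA-4, had 10.5, 8.13, 32.7 and 44.7 CPM (2.06 ± 0.23, adjusted p = 0.000264). These 3 ligand genes did not overlap between groups, as held for 61.1% of all genes tested. Among the lower members, Cd96, a receptor of T and NK cells, fell from 28.6 and 29.9 to 4.97 and 8.70 CPM (-2.09 ± 0.29, adjusted p = 0.000908), and Lgals9, galectin-9, from 162 and 172 to 79.1 and 70.9 CPM (-1.15 ± 0.18, adjusted p = 0.00160). The other lower members, Tigit and Cd27, were lost without azacytidine library 2, and without that library 5 members were higher. Of 9 tested ligands of NK cell receptors, 3 were higher and 1 lower. The higher ones were Clec2g (0.452, 0.249, 13.2 and 13.7 CPM), Nectin2 and the death receptor Fas, and the lower one was the NKG2D ligand H60c (3.52, 8.03, 0.588 and 0.477 CPM, -3.42 ± 0.60, adjusted p = 0.00334).

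Targets of p53 rose, as did inducers of cell death. Of 40 tested p53 targets 21 were higher and 2 lower, and 17 missed the threshold. The lower ones, Ckap2 and Perp, were lost without DMSO library 1 or either azacytidine library. Cdkn1a, the p21 inhibitor of cyclin-dependent kinases, had 38.7, 31.5, 375 and 360.2 CPM (log2 fold change 3.39 ± 0.25, adjusted p = 3.23e-05). Btg2, an antiproliferative gene, had 85.8, 98.6, 634 and 545 CPM (2.68 ± 0.19, adjusted p = 2.78e-05). The kinase gene Plk2 had 1 DMSO read and 24.2 and 20.6 CPM with azacytidine, a ratio of 892 with a counting interval of 159.5 to 35269. In each of these genes the treated libraries stood well apart from the DMSO libraries.

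The BCL2 family and death receptors had 13 higher, none lower and 18 not passed of 31 tested. Bmf, a BH3-only killer, had 1.11, 8.92, 119 and 49.1 CPM (4.06 ± 0.71, adjusted p = 0.00338), with a wide spread in both groups. Bbc3 (PUMA) had 15.6, 17.6, 62.3 and 44.2 CPM (1.68 ± 0.30, adjusted p = 0.00380), and Pmaip1 (NOXA) 2.97, 4.09, 19.3 and 13.4 CPM (2.21 ± 0.34, adjusted p = 0.00167). Without azacytidine library 1 the list had 5 higher genes, and without either DMSO library it had 1 lower.

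Lysosome and autophagy genes had 18 higher and none lower of 40 tested. Ctsl, the cathepsin L protease, had 18.0, 32.6, 107 and 117 CPM (2.15 ± 0.28, adjusted p = 0.000667). Sqstm1, an autophagy receptor, had 202, 172, 543 and 399.6 CPM (1.33 ± 0.23, adjusted p = 0.00294). Map1lc3b, which marks autophagosomes, rose by 1.04 ± 0.18 (adjusted p = 0.00325). The count was 6 without azacytidine library 1 and 11 without DMSO library 1.

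Genes of cell division fell. Of 58 tested mitosis genes 41 were lower, none was higher and 17 did not pass, with a median log2 fold change of -0.76. Prc1, the bundler of midzone microtubules, had 110.2, 99.8, 42.1 and 48.9 CPM (-1.21 ± 0.17, adjusted p = 0.00107). Kif2c, a kinesin that corrects kinetochore attachments, had 132, 125, 62.5 and 54.2 CPM (-1.14 ± 0.19, adjusted p = 0.00258). For both genes the libraries of a group lay close together and the groups did not overlap, the latter as in 61.1% of all genes tested. Mki67, the Ki-67 proliferation marker, had 1330, 1171, 758 and 782 CPM (-0.70 ± 0.22, adjusted p = 0.0460). Leaving out a library lowered the count: 16 members were lower without DMSO library 1, 9 without azacytidine library 1 and 12 without azacytidine library 2, and Mki67 was lost in each case.

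Replication genes had 21 lower, 1 higher and 29 not passed of 51 tested (median -0.51). Pold2, a subunit of DNA polymerase delta, had 144, 119.98, 61.9 and 45.9 CPM (-1.29 ± 0.20, adjusted p = 0.00171). The higher member was E2f2, with 103, 98.4, 181 and 145 CPM (0.70 ± 0.17, adjusted p = 0.0153), lost without either DMSO library or azacytidine library 1. Of 53 tested repair genes 26 were lower and none higher (median -0.66), led by Lig4, the ligase of non-homologous end joining, with 100.3, 99.3, 24.1 and 27.2 CPM (-1.96 ± 0.20, adjusted p = 0.000161). Replication genes numbered 13 lower without DMSO library 1, 6 without azacytidine library 1 and 8 without azacytidine library 2, and repair genes 11, 8 and 10.

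Core histone genes fell: 46 of 51 tested were lower, none was higher and 5 did not pass, with a median of -1.08. H2bc12 had 178, 175, 52.3 and 49.2 CPM (-1.80 ± 0.16, adjusted p = 8.52e-05) and H2bc14 215, 195, 67.7 and 57.8 CPM (-1.71 ± 0.17, adjusted p = 0.000139). Replicates lay close together for both genes, and without azacytidine library 2 the list had 26 lower. Histone genes are near copies of each other, and their reads may be shared. Their transcripts end in a stem loop in place of a poly(A) tail, and the kit is described only as standard Illumina. RNA without such tails moved between the groups as well: 18S rRNA took 0.525% and 0.758% of DMSO counts and 1.32% and 1.47% of azacytidine counts, and 7SK 0.206% and 0.216% against 0.602% and 0.497%. These shares moved opposite to the histones, and their part in the result was not tested.

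**Figure D4:**
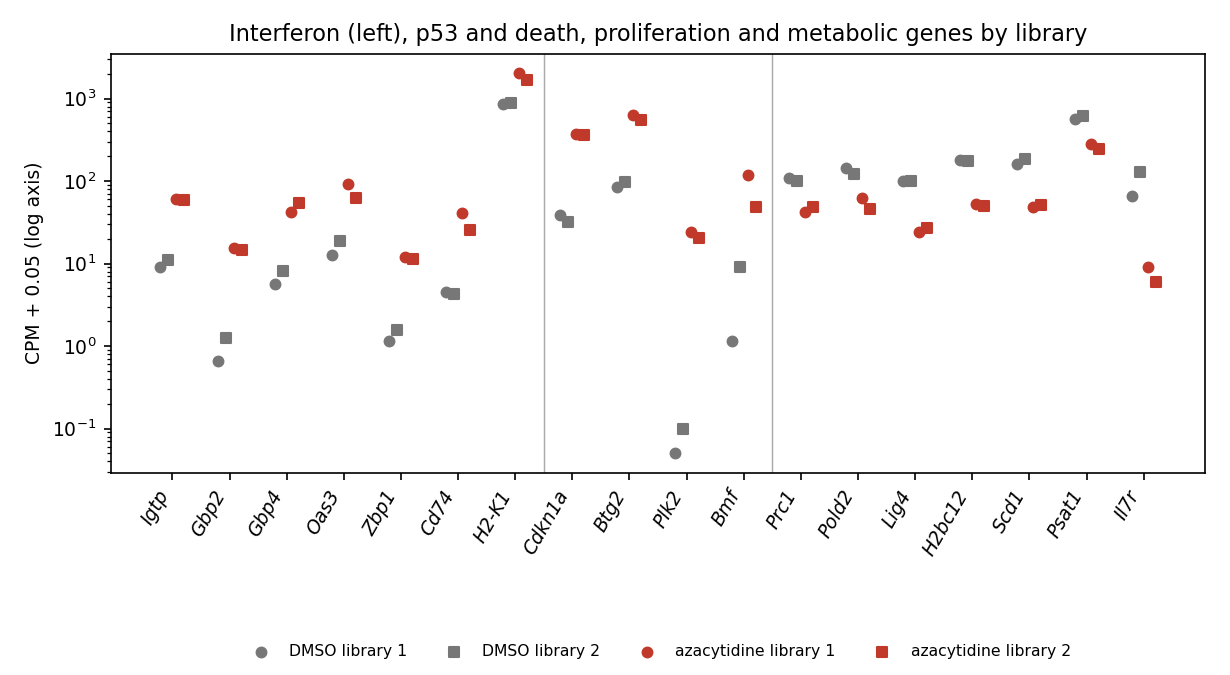
CPM plus 0.05 (y axis, log axis) of 18 genes in the 4 libraries, from left to right interferon and presentation genes, p53 and death genes, and genes that fell; grey marks DMSO, red azacytidine, circles library 1 and squares library 2. The groups do not overlap for any gene shown (nor for 61.1% of all genes tested), and the falls at the right are narrower than most of the rises.

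Genes of anabolic metabolism fell with the proliferation genes. Of 37 tested genes for cholesterol and fatty acid synthesis, 23 were lower, 2 higher and 12 did not pass (median -0.70). Scd1, the stearoyl-CoA desaturase, had 162, 187, 48.9 and 50.9 CPM (-1.80 ± 0.21, adjusted p = 0.000356). Fdps, which makes farnesyl diphosphate, had 108, 135, 44.6 and 41.1 CPM (-1.50 ± 0.18, adjusted p = 0.000368). The higher members, Abca1 and Abcg1, export sterol from cells and are not synthesis enzymes, and both lost their call without azacytidine library 1, while 1 was left without DMSO library 2 or azacytidine library 2. The count of lower members was 13 without azacytidine library 1 and 14 without azacytidine library 2.

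Amino acid supply and the integrated stress response had 22 lower, 7 higher and 17 not passed of 46 tested. The lower members included enzymes of serine and one-carbon synthesis. Psat1 had 567, 607, 279.8 and 242 CPM (-1.17 ± 0.17, adjusted p = 0.00139), and Shmt2 had 303, 326, 145 and 99.4 CPM (-1.36 ± 0.20, adjusted p = 0.00138). Among the higher members was the stress cytokine Gdf15, also a p53 target, with 0.503, 0.598, 20.9 and 9.30 CPM (4.76 ± 0.51, adjusted p = 0.000240). Aminoacyl-tRNA synthetases had 11 lower and none higher of 18, for example Eprs1 with 463, 423, 215 and 219.8 CPM (-1.03 ± 0.16, adjusted p = 0.00176). The amino acid and stress list had 4 higher without azacytidine library 1. Without azacytidine library 2 there were 7 lower genes of that list and 2 lower synthetases, and without DMSO library 1 or azacytidine library 1 there were 6 lower synthetases.

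Ribosome biogenesis had 16 lower and none higher of 38 tested, but none was lower without DMSO library 1 or without azacytidine library 1, and 1 was lower without azacytidine library 2, while 25 were lower without DMSO library 2. Npm1, the nucleolar chaperone, had 1867, 1263, 750.1 and 798 CPM (-1.02 ± 0.24, adjusted p = 0.0138), and DMSO library 1 was the highest. No cytosolic ribosomal protein gene of 59 tested passed, and 1 of 45 nuclear genes for oxidative phosphorylation did, Ndufa10, which was lost without DMSO library 1 or either azacytidine library, while 3 were lower without DMSO library 2. Glycolysis and hypoxia genes had 7 lower and 1 higher of 38 (3 lower without azacytidine library 2; 3 higher without DMSO library 2 and none without each other library), with Pdk1 at 254, 263, 117 and 109 CPM (-1.19 ± 0.16, adjusted p = 0.000812). Myc, the growth regulator, had 210.1, 186, 121 and 97.5 CPM (-0.86 ± 0.17, adjusted p = 0.00632, lost without azacytidine library 2).

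**Figure D5:**
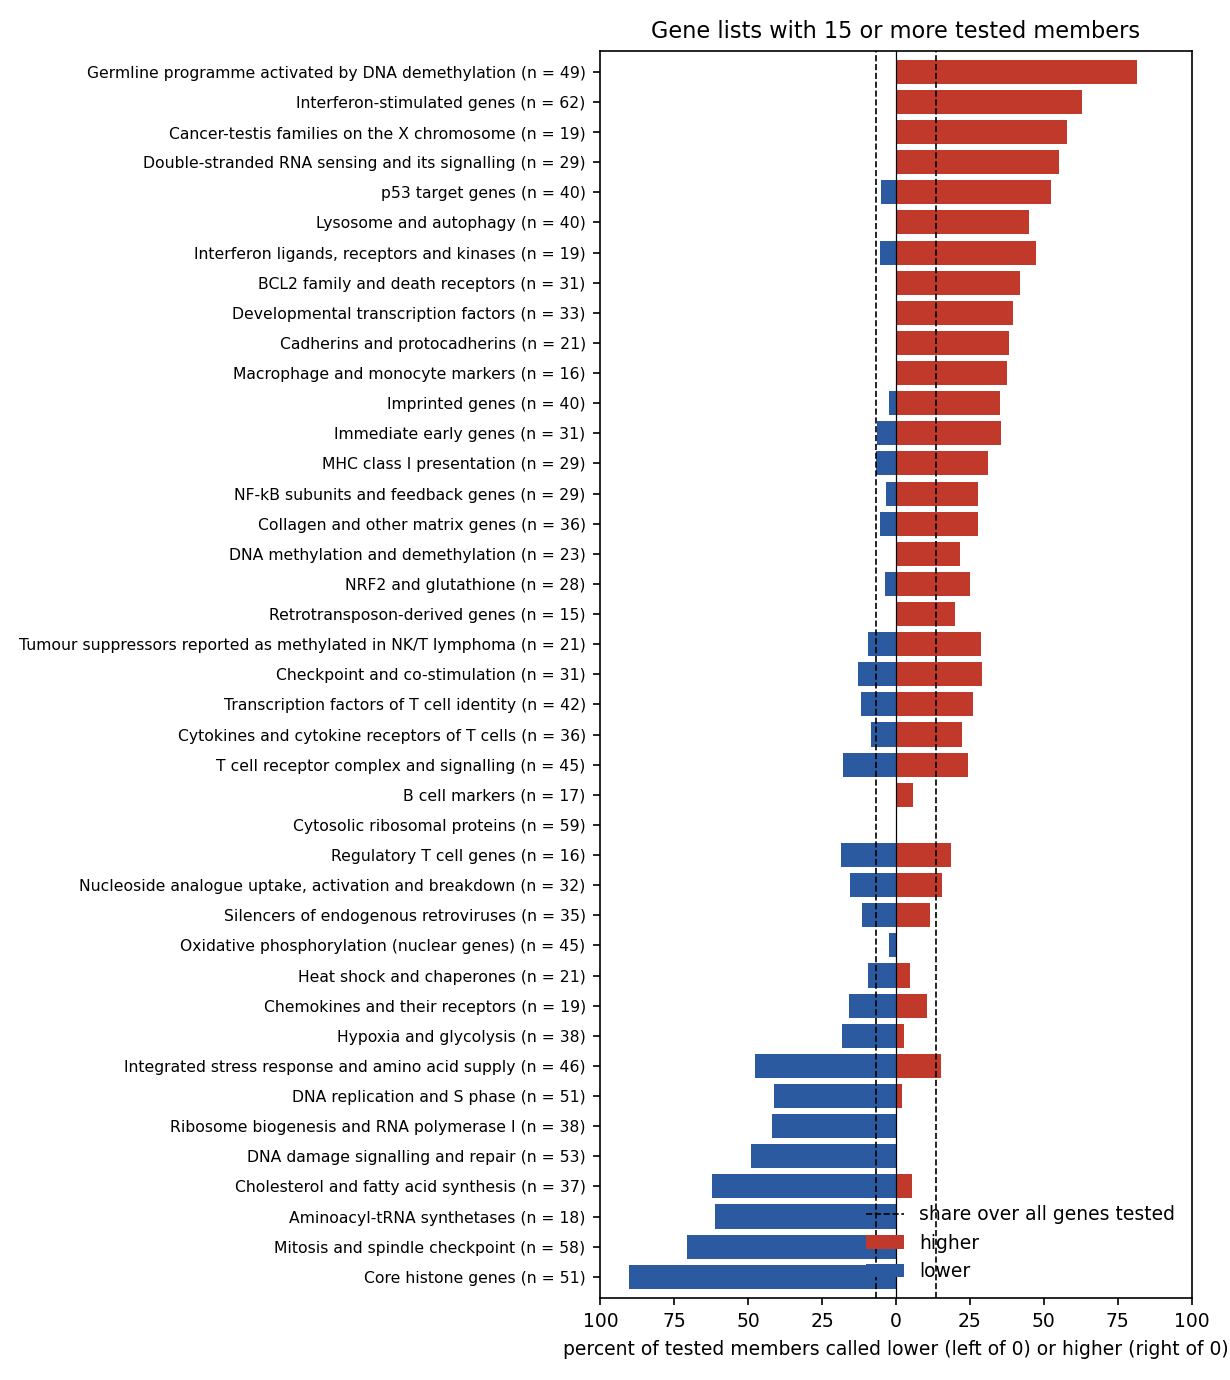
Percent of tested members called higher (red, right) or lower (blue, left) for each gene list with 15 or more tested members, with that number in brackets; dashed lines are the shares over all genes tested, 13.6% higher and 6.7% lower. Germline and interferon lists lie at the top, and histone, mitosis and tRNA synthetase lists at the bottom.

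Genes for the enzymes that the drug traps and for its metabolism moved in both directions or did not pass. The methyltransferase gene that copies methylation at replication, Dnmt1, had 637, 585, 493 and 477 CPM and did not pass (log2 fold change -0.33 ± 0.16, adjusted p = 0.176). Uhrf1, its guide to replicated DNA, had 375, 297, 311 and 224 CPM (-0.33 ± 0.20, adjusted p = 0.288). The de novo enzyme gene Dnmt3a rose from 241 and 263 to 559 and 409.7 CPM (0.94 ± 0.19, adjusted p = 0.00645, lost without azacytidine library 1), whereas Dnmt3b had 41.1, 31.01, 40.2 and 34.3 CPM (0.05 ± 0.20, adjusted p = 0.902). Of 23 tested genes of DNA methylation and demethylation, 5 were higher and none lower: Gadd45g, Zbtb4, Dnmt3a, Gadd45b and Apobec1. The share higher was 21.7%, against 13.6% of all genes tested. The number higher was 1 without azacytidine library 1, and without azacytidine library 2 or DMSO library 1 there were 3, while 1 was lower without DMSO library 2. Of 32 tested genes of nucleoside uptake, activation and breakdown, 5 were higher (Samhd1, Abcb1a, Tk1, Cmpk2 and Slc29a3) and 5 lower (Dctd, Dut, Ctps1, Rrm2 and Nt5c3b). Each direction held 15.6% of this list, against 13.6% higher and 6.7% lower over all genes tested. There were 2 higher without azacytidine library 1, 3 higher without either DMSO library or azacytidine library 2, and 1 lower without DMSO library 1 or either azacytidine library. Dctd, the deaminase of deoxycytidylate, fell from 59.3 and 57.3 to 28.8 and 26.9 CPM (-1.07 ± 0.17, adjusted p = 0.00230). Dut, which removes dUTP, fell from 174 and 124 to 80.9 and 72.8 CPM (-0.95 ± 0.20, adjusted p = 0.00801), a call lost without DMSO library 1 or either azacytidine library. The drug exporter gene Abcb1a had 3 DMSO reads and 33 with azacytidine, a ratio of 13.7 with a counting interval of 4.30 to 69.8. Uck2, the kinase that activates azacytidine, had 485, 391, 450.4 and 444 CPM (0.03 ± 0.18, adjusted p = 0.932), and Dck, the kinase for decitabine, 57.6, 55.2, 46.5 and 48.2 CPM (-0.25 ± 0.16, adjusted p = 0.316). Samhd1, which destroys deoxynucleotide triphosphates, had 0.553, 0.598, 5.23 and 3.28 CPM (2.87 ± 0.50, adjusted p = 0.00327). Silencers of endogenous retroviruses had 4 higher (Atf7ip, Zfp809, Hdac1 and Resf1) and 4 lower (Pcgf6, Suv39h1, Cbx5 and Smchd1) of 35, and 2 higher without any 1 of the 4 libraries. With all libraries each direction held 11.4% of the silencers, against 13.6% higher and 6.7% lower over all genes tested. Atf7ip, the partner of the H3K9 methyltransferase SETDB1, had 161, 185, 535 and 552 CPM (1.65 ± 0.17, adjusted p = 0.000155). No lower silencer was left without DMSO library 1 or either azacytidine library.

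T cell genes changed in both directions. Signalling genes of the T cell receptor had 11 higher, 8 lower and 26 not passed of 45 tested. Cd3g rose from 113 and 105 to 206 and 214 CPM (0.95 ± 0.15, adjusted p = 0.00232). Rasgrp1, which links the receptor to RAS, fell from 823 and 730.3 to 229.7 and 245 CPM (-1.71 ± 0.24, adjusted p = 0.000988), and the adaptor gene Skap1 from 127 and 134 to 43.3 and 38.7 CPM (-1.67 ± 0.17, adjusted p = 0.000155). Il7r, the receptor for the survival cytokine IL-7, had 65.6, 129, 8.95 and 5.90 CPM, the largest fall among listed cytokine genes (-3.72 ± 0.52, adjusted p = 0.000980). Without azacytidine library 1 the receptor list had 1 higher and 3 lower, without azacytidine library 2 it had 7 higher and 5 lower, and without DMSO library 1 it had 3 higher and 14 lower.

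Transcription factors of T cell identity had 11 higher and 5 lower (Myb, Tox, Ikzf2, Zeb1 and Lef1) of 42 tested. Zbtb7b (ThPOK), which sets the CD4 lineage, had 12.4, 16.6, 104 and 67.9 CPM (2.57 ± 0.25, adjusted p = 0.000133). Cd4 itself did not pass (-0.91 ± 0.94, adjusted p = 0.549) and reversed without DMSO library 2. Lrrc32 (GARP), a surface protein of activated regulatory T cells, had 0.352, 0.149, 129.96 and 103 CPM (8.82 ± 0.56, adjusted p = 1.50e-05). Ikzf2 (Helios) fell from 635 and 722 to 299 and 366 CPM (-1.03 ± 0.20, adjusted p = 0.00634, lost without azacytidine library 1). Higher transcription factors numbered 5 without azacytidine library 1 and 7 without DMSO library 1, and 1 was lower without azacytidine library 1.

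Markers of other blood cells were called to differing degrees. Of 16 tested macrophage markers 6 were higher (37.5%, against 13.6% of all genes tested) and none lower. Their summed level was 47.7 and 58.1 CPM in the DMSO and 76.6 and 75.3 CPM in the azacytidine libraries. Of 8 tested dendritic cell markers 1 was higher and 2 were lower (25% lower, against 6.7% of all genes tested). The B cell markers summed to 562 and 685 CPM with DMSO and 661 and 660.2 CPM with azacytidine, and the erythroid and megakaryocyte markers to 603 and 482 against 350.4 and 343 CPM. The complement genes C1qa, C1qb and C1qc and the scavenger receptor gene Marco had no read in any of the 4 libraries. Spi1, the myeloid factor PU.1, had 0, 0.349, 10.3 and 3.99 CPM (5.30 ± 0.90, adjusted p = 0.00295). Of 17 tested B cell markers 1 was higher, Spib, with 1.41, 2.14, 25.5 and 13.5 CPM (3.45 ± 0.38, adjusted p = 0.000264). Granulocyte markers had 3 of 30 members tested and erythroid markers 10 of 28, and the granule genes S100a8 and S100a9 had no read. Without DMSO library 1 the macrophage list had 3 higher, and without DMSO library 2 the B cell list had 4 higher, while it had 3 lower without DMSO library 1. The part of other cells in the results was not tested.

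Some genes of other tissues rose as well. Of 36 tested matrix genes 10 were higher and 2 lower (Acta2 and Anxa2, both lost without either azacytidine library; 4 lower without DMSO library 1 and 1 without DMSO library 2), of 21 cadherins and protocadherins 8 were higher and none lower, and of 33 developmental transcription factors 13 were higher and none lower. The shares higher of those tested were 27.8%, 38.1% and 39.4% in this order, against 13.6% of all genes tested. The filter on low counts had left out 21 of 57 matrix genes, 13 of 34 cadherins and 34 of 67 developmental factors. Of all these listed genes, 17.5%, 23.5% and 19.4% were called higher. The cadherin gene Cdh19, known from Schwann cell precursors, had 1 DMSO read and 101.3 and 167 CPM with azacytidine, a ratio of 5425 whose counting interval starts at 973. Col1a2, a chain of type I collagen, had no DMSO read and 20.5 and 4.83 CPM, at least 164-fold higher, with a wide gap between the treated libraries. Hoxb8 had 0.452, 0.349, 9.02 and 8.17 CPM (4.40 ± 0.41, adjusted p = 0.000119), and Sox9, a factor of cartilage and testis, had 1 DMSO read and 327 with azacytidine (ratio 407, counting interval 72.6 to 16134). Of 8 tested Hoxb genes 5 were higher (Hoxb4, Hoxb6, Hoxb7, Hoxb8 and Hoxb13) and 1 lower (Hoxb9, lost without DMSO library 2 or either azacytidine library). Cadherin calls numbered 5 without azacytidine library 2.

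Immediate early genes had 11 higher and 2 lower (Myc and Nr4a1) of 31, and NF-kB genes 8 higher and 1 lower (Cd69, lost without azacytidine library 1) of 29. Jun, a subunit of AP-1, had 4.12, 4.49, 43.9 and 43.6 CPM (3.34 ± 0.38, adjusted p = 0.000323), and Nfkbiz, an inducible NF-kB cofactor, 16.6, 15.3, 55.5 and 52.1 CPM (1.75 ± 0.18, adjusted p = 0.000167). The chemokine gene Cx3cl1 had 2.16, 1.74, 42.1 and 33.1 CPM (4.26 ± 0.37, adjusted p = 8.11e-05), whereas the receptor Ccr9 fell from 359 and 334 to 94.9 and 117 CPM (-1.70 ± 0.18, adjusted p = 0.000241). Higher immediate early genes numbered 6 without azacytidine library 1, and lower ones 4 without DMSO library 2, 1 without DMSO library 1 or azacytidine library 1 and none without azacytidine library 2.

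Decitabine, the deoxy analogue, was given at 0.2 µM, so its values are set beside those of azacytidine without a ranking, and both drugs share the DMSO libraries. Mean levels were 72.7 CPM of Rec8 with decitabine and 80.6 CPM with azacytidine, 669 and 861 CPM of Xist, 98.3 and 59.4 CPM of Igtp, 349 and 368 CPM of Cdkn1a, and 46.6 and 50.8 CPM of H2bc12. In the direct test of the 2 drugs edgeR called 0 genes (0%), with 1219 at an unadjusted p under 0.05, limma-voom called 0 and DESeq2 175. With 2 libraries a group this does not show that the drugs act alike.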

How the data were processed

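The 4 libraries of EG7-OVA cells given DMSO or azacytidine were compared, with the 2 decitabine libraries of the same table kept in the model. The authors deposited estimated counts per gene symbol: 145 values in 62 of 55969 entries were not whole; their origin is not stated in the labels. The submitters' processing notes name fastp, Trim Galore, STAR and featureCounts and, alike for mouse and human samples, GRCh38 and mm10; versions and strandedness were not given. Values were rounded here. Genes were kept by filterByExpr (19123 tested, 36846 left out), scaled by TMM and fitted with 1 mean per group by edgeR 4.0.16 (glmQLFit, two-sided quasi-likelihood test, Benjamini-Hochberg over all genes tested, threshold 0.05) in R 4.3.3. The standard error of a log2 fold change was taken as its size over the square root of the F statistic. The model had 3 residual and 7.07 prior degrees of freedom and a biological coefficient of variation of 0.244. Replicates correlated across genes at r = 0.969 (DMSO) and 0.976 (azacytidine), where genes are not independent.

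On simulated counts for this comparison (18503 genes), 28 of 100 genes changed by 1 on the log2 scale and 63 of 100 changed by 2 were recovered, and 18.8% of the calls were unchanged genes. No other genes were changed, and all changed genes had a mean above 1 CPM. In the real comparison 20.3% of genes were called. Recovery and the share of unchanged genes depend on how many genes change, so these values do not carry over to the real calls. Bounds set a group without reads at 3 counts on the TMM-scaled library sizes, ratios have exact 95% intervals, and both cover counting error only.

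The members and the 48 gene lists were chosen with earlier results of these data known. Genes were named by rule: up to 15 per direction with the largest fold change among called genes whose libraries did not overlap between groups and whose higher group averaged 5 CPM or more, the 4 smallest p of each list, the switched-on and switched-off genes with the largest bound, and a set of regulators and markers. Other genes, such as members of a count of 5 or fewer, were named after their values were seen. Some genes that the rule names are not reported here. Positions and classes came from GENCODE vM21 by symbol (17968 tested genes matched) and promoters from RefSeq on GRCm38.p6 (11285 tested genes matched). DMSO libraries were taken by library name as replicates 1 and 2, whereas their titles number them 2 and 3. Deviations of same-numbered DMSO and azacytidine libraries correlated at r = -0.257 across genes. The values were -0.191 for DMSO and decitabine and 0.273 for azacytidine and decitabine. With 2 libraries a group the crossed pairing has the opposite sign, so these values cannot settle whether libraries were paired. Alternatives were DESeq2 1.42.0, limma-voom 3.58.1, other scaling and filters, a fold threshold, a replicate block and leaving out each library. In each fit without a library the lone sample of its group is assumed to vary like the other groups.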

Additional observations from a re-analysis of the deposited data

How the results depend on the processing

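Across alternatives that kept all libraries, other than a test against an absolute log2 fold change of 1, genes higher numbered 2198 to 3472 and genes lower 1149 to 1814. Tested against an absolute log2 fold change above 1, 1214 genes were higher and 84 lower. Leaving out 1 library gave 1327 to 2513 genes higher and 348 to 1382 lower, the lowest both without azacytidine library 1. Without azacytidine library 2, 487 were lower. With fewer libraries the test has fewer degrees of freedom. With the replicate block 2461 genes were higher and 1149 lower, of which 2392 and 1100 were called without it. With the crossed block, which exchanged the numbers of the DMSO libraries, 3006 were higher and 1574 lower. Without Malat1, 7SK and 18S rRNA in the library sizes, which shifts the scaling, 2493 were higher and 1393 lower; the crossed block and this setting were chosen after seeing the data.

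Switched-on genes numbered 169 with 20 reads, 557 with 5 reads, and 393 to 512 on leaving out a DMSO or azacytidine library, the most without DMSO library 2. Between azacytidine and decitabine 0 genes were called by edgeR, 175 by DESeq2, 378 with no filter, and 0 to 73 on leaving out a library, the most without DMSO library 2. Of the 197 named genes that were called, 154 kept their call in every alternative other than the fold threshold. Cd4 turned from -0.91 (adjusted p = 0.549) to 2.58 (adjusted p = 0.00755) without DMSO library 2, the library with the highest Cd4 level, and ranged from -1.97 to 2.58 on leaving out a library. Of 28 named genes that did not pass, 8 were called in some alternative. Calls of weakly expressed genes rest on few reads, and 2 libraries a group limit all calls of small changes.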
